A study of Homo sapiens with 6 samples.

Results

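Cisplatin is a platinum drug that must cross the plasma membrane before it can bind DNA, and copper-handling proteins and the volume-regulated anion channel have both been studied as its routes into and out of cells. The genes described here are the copper importer SLC31A1 (also called CTR1), its homologue SLC31A2, the copper-exporting ATPases ATP7A and ATP7B, the copper chaperones ATOX1, CCS and COX17, and 2 subunits of the anion channel, LRRC8A and LRRC8D. They were chosen by name for their role in platinum uptake and copper handling, not by a measured value. Earlier results of these data were known when they were chosen. All 9 were found among the 61552 genes of the series, and 8 were abundant enough to be tested.

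The data are RNA-seq of NCI-H520, an established line of human lung squamous cell carcinoma, unmodified and labelled wild type. It was grown in RPMI-1640 with 15% serum. There were 3 libraries of cells given PBS, the vehicle, and 3 of cells given 2 µM cisplatin, and both groups were treated for 48 h. The series comes from work on SOX2 and drug resistance in this cancer, and here the 1 comparison is cisplatin against PBS in 1 cell line at 1 dose and time. The labels do not say that the 3 libraries of a group came from separate cultures, so p-values measure the spread between these libraries, which may be technical.

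In a cell, copper enters as the reduced ion through SLC31A1 and is passed by chaperones to its users. ATOX1 carries it to ATP7A and ATP7B, which pump it into the secretory pathway or out of the cell. CCS delivers it to superoxide dismutase 1, and COX17 hands it to the assembly of cytochrome c oxidase in mitochondria. The anion channel is a hexamer of LRRC8 proteins in which LRRC8A is obligatory, and LRRC8D is the partner tied to passage of larger uncharged or organic substrates, cisplatin among them.

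Library totals ran from 9121180 to 16724285 expected counts (the quantifier's estimate of the fragments of each gene). Levels within a gene are given as CPM, counts made comparable between libraries by TMM scaling, and levels between genes as the deposited TPM, which also divide by transcript length. A gene was called when the adjusted p of edgeR's quasi-likelihood test (Benjamini-Hochberg over 15063 genes) was under 0.05. That was so for 38.2% of all tested genes, with 18.9% higher and 19.3% lower under cisplatin. In 49.7% of tested genes the CPM of the groups did not overlap. Of 8 epithelial and squamous markers 7 were tested, with TP63, a squamous marker, too low, and SOX2 lay at 281 to 353 CPM. The summed CPM of the 8 was 2194 to 2242 with PBS and 2530 to 2694 with cisplatin. Mean CPM with PBS was 896 for KRT8, 518 for KRT18 and 477 for EPCAM, but 5.42 for KRT5 and 1.82 for KRT6A. KRT8, KRT18 and CDH1 were called higher, while SOX2, EPCAM (log2 -0.12), KRT5 and KRT6A were not called. Of the markers of other cells, the fibroblast and leukocyte sums were higher with cisplatin and the endothelial sums overlapped. With PBS and with cisplatin they were 10.5 to 15.3 and 23.0 to 24.5 CPM for fibroblast genes, mostly COL1A1 (9.93 to 14.5 and 21.8 to 22.9), 1.90 to 2.30 and 3.74 to 4.58 for leukocyte genes, and 0.329 to 1.05 and 0.498 to 1.247 for endothelial genes. COL1A1 was called higher (log2 0.82), and the tested leukocyte markers went opposite ways, LYZ higher (1.84, adjusted p = 2.6e-04) and CD14 lower (-0.98, adjusted p = 0.0467; edgeR). LYZ had 6 to 17 counts with PBS and 36.5 to 59.45 with cisplatin, and CD14 11 to 15 and 5 to 10. Each passed the low-count filter only through the group where it is high, so these 2 calls are no support for the list. No fibroblast marker but COL1A1 was abundant enough to be tested, nor were PTPRC, CD3E and CD68, and 1 fibroblast marker was at 0 in all libraries. Their part in the results below was not tested, and in bulk RNA fewer cells of a type and less RNA per cell cannot be told apart.

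Among the 8 tested genes, cisplatin-treated cells had higher mRNA of the chaperones ATOX1 and CCS, about 1.5-fold each, and lower mRNA of the channel subunit LRRC8D, at 0.811 of its PBS level. The importer SLC31A1, the exporters ATP7A and ATP7B, the mitochondrial chaperone COX17 and the obligatory subunit LRRC8A did not pass the test. The count of 2 higher and 1 lower, 25% and 12.5% of the 8, lies near the shares over all tested genes. The groups did not overlap in 4 of the 8, which is 50% against the 49.7% above. The median log2 fold change was -0.05 over the 8 genes and -0.00035 over all tested genes.

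**Figure D1:**
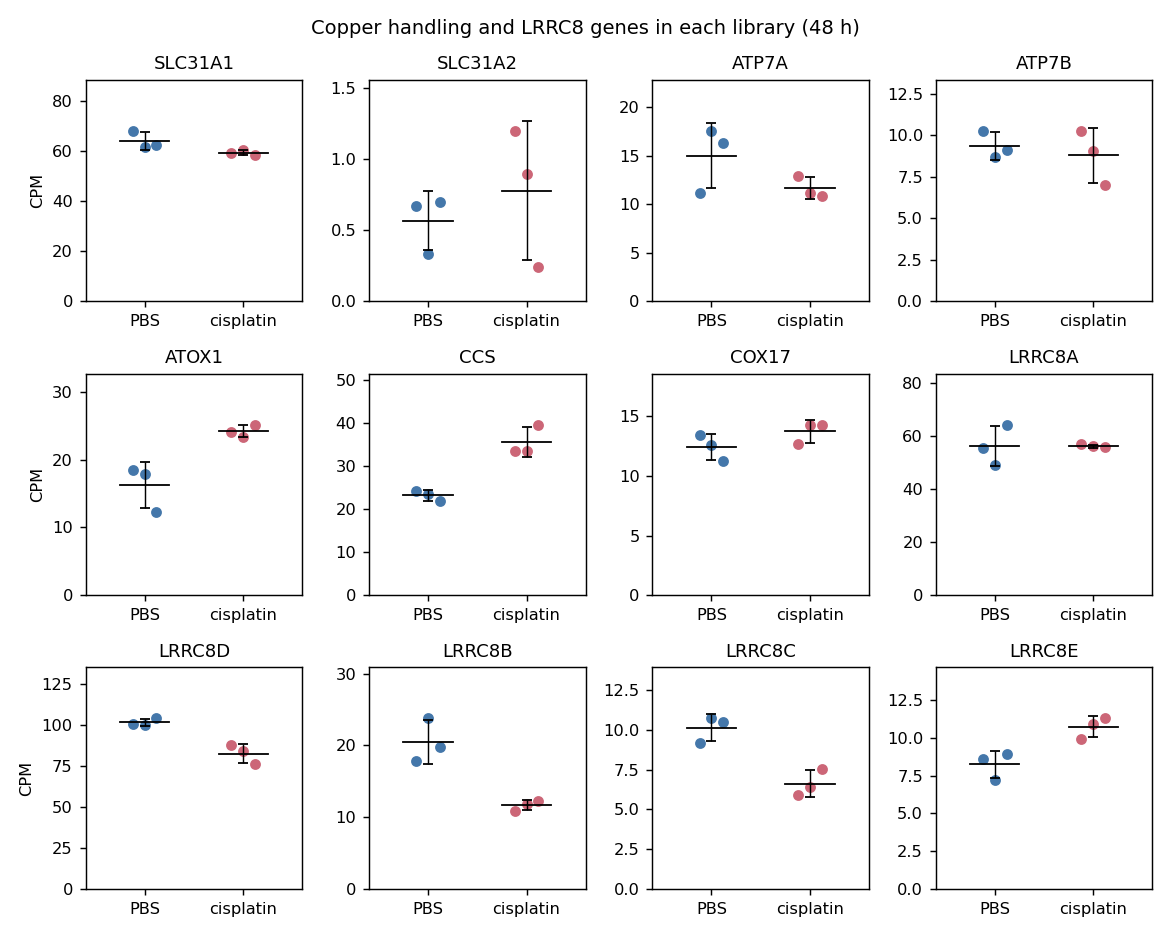
Level of each of the 9 genes and of the 3 other LRRC8 subunits in every library, in CPM after TMM scaling, with each gene on its own axis starting at 0; points are libraries, and lines are group means with SD (n = 3 per group). The cisplatin points of ATOX1 and CCS lie above, and those of LRRC8D below, all PBS points.

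Fold changes in these data went with transcript length, and the genes here span it from COX17 and ATOX1 to ATP7A. Over all tested genes the Spearman correlation of log2 fold change with the deposited transcript length was -0.35, a description across genes, which are not independent. Of 332 genes with transcripts up to 600 bases, 33.7% were higher and 16.6% lower, with a median of 0.29. Of 1642 genes over 5000 bases, 4.93% were higher and 48.1% lower, with a median of -0.29. The part of this trend in any gene's change was not tested. For that reason the values below are also given from a fit in which each library's trend with length was taken out as an offset, called the length-corrected fit.

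**Figure D2:**
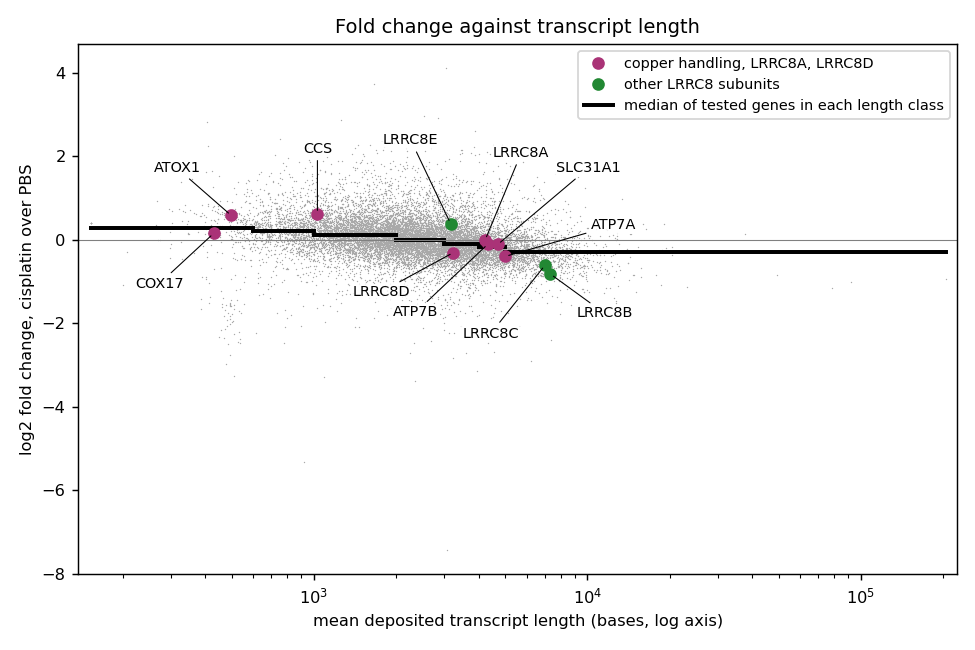
Log2 fold change (cisplatin over PBS) against mean deposited transcript length in bases on a log axis; grey dots are the 15063 tested genes, coloured points the named genes, and black steps the median of each length class, which falls from 0.29 at up to 600 bases to -0.29 above 5000 bases. ATOX1 and CCS lie above, and LRRC8D, LRRC8B and LRRC8C below, the median of their class.

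SLC31A1, the main copper importer (GRCh38 chromosome 9, 113221562 to 113264492, plus strand), had 68.2, 61.8 and 62.5 CPM in the PBS libraries and 59.2, 60.6 and 58.6 CPM with cisplatin. All cisplatin values lay below all PBS values, narrowly between library 2 of each group, while on TPM the groups overlapped (14.3 to 17.7 with PBS and 13.3 to 14.7 with cisplatin). The log2 fold change was -0.11 ± 0.08 (SE, n = 3 per group; edgeR adjusted p = 0.290). The 95% interval of the fold, 0.826 to 1.04, leaves out a drop below 0.826 of the PBS level. In the length-corrected fit the sign turned, to 0.08 (adjusted p = 0.478). SLC31A1, ATP7B and LRRC8A have transcripts of 4000 to 5000 bases, a class of which 8.24% were higher and 31.1% lower.

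SLC31A2, a homologue of SLC31A1 found mostly on internal membranes (chromosome 9, 113150942 to 113164137, plus strand), was too low to test. It had 5.97, 4.93 and 9.53 expected counts with PBS and 12.1, 10.3 and 3.97 with cisplatin. The libraries of the groups overlapped, and with no low-count filter the log2 fold change was 0.39 (edgeR adjusted p = 0.625). Moreover, 63.1% of its exonic bases lie opposite FKBP15, which averaged 425 counts, and no strand setting is given, so reads of the pair cannot be told apart.

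ATP7A, the exporter used by most tissues (chromosome X, 77910656 to 78050395, plus strand), had 11.2, 17.6 and 16.3 CPM with PBS and 13.0, 11.1 and 10.9 CPM with cisplatin. PBS library 1 sat among the cisplatin libraries and the other PBS libraries above them. The log2 fold change was -0.39 ± 0.16, with a 95% interval of -0.74 to -0.05, an unadjusted p of 0.0288 and an edgeR adjusted p of 0.0687, so it was not called. This call turned on PBS library 1: without it the log2 fold change was -0.55 (adjusted p = 0.00993). It also passed with no low-count filter (-0.39, adjusted p = 0.0292), and was not called in the length-corrected fit (-0.19, adjusted p = 0.363). ATP7A shares 0.888% of its exonic bases with PGK1 on the same strand, a gene with 7530 counts on average.

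ATP7B, the exporter mutated in Wilson disease and best known from liver (chromosome 13, 51930436 to 52012125, minus strand), had 10.3, 8.68 and 9.13 CPM with PBS and 10.3, 9.09 and 7.03 CPM with cisplatin. The groups overlapped. The fold was 0.933 (95% interval 0.734 to 1.19, adjusted p = 0.6496). Without cisplatin library 3, the lowest, the log2 fold change turned from -0.10 to 0.06.

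ATOX1, which hands copper to both ATPases (chromosome 5, 151742316 to 151772532, minus strand), had 18.4, 18.0 and 12.3 CPM with PBS and 24.1, 23.3 and 25.2 CPM with cisplatin. Every cisplatin library was above every PBS library, and PBS library 3 was the lowest of the 6. It rose by 0.59 ± 0.14 on the log2 scale, a fold of 1.50 (95% interval 1.22 to 1.85, adjusted p = 0.00570). Without PBS library 3 the log2 fold change was 0.41, still called. The length-corrected fit gave 0.27 (adjusted p = 0.0583), which is not a call: the transcript averages 499 bases, in the class with a median of 0.29 over all genes. ATOX1 shares 2.48% of its exonic bases with G3BP1 on the other strand, which averaged 3218.5 counts and was lower (log2 -0.43).

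CCS, the chaperone of superoxide dismutase 1 (chromosome 11, 66592821 to 66606019, plus strand), had 24.2, 23.5 and 21.8 CPM with PBS and 33.5, 33.5 and 39.6 CPM with cisplatin. The groups stood well apart, and the spread within each was small against the gap. It rose by 0.62 ± 0.10 on the log2 scale, a fold of 1.54 (95% interval 1.33 to 1.79, adjusted p = 5.4e-04), the smallest adjusted p of the 8. In the length-corrected fit the rise was 0.42 (adjusted p = 0.0028), still called. Its transcript averages 1030 bases, in a class of which 26.6% were higher and 8.44% lower. CCS shares 10.6% of its exonic bases with CCDC87 on the other strand, a gene with 11.8 counts on average.

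COX17, the copper chaperone of the mitochondrial intermembrane space (chromosome 3, 119654513 to 119677454, minus strand), had 13.4, 12.6 and 11.2 CPM with PBS and 12.7, 14.3 and 14.3 CPM with cisplatin. The groups overlapped, and the fold was 1.11 (95% interval 0.929 to 1.34, adjusted p = 0.331). Its direction depended on the scale: limma on log2(TPM + 1) gave -0.11 and the length-corrected fit -0.21, neither called. It is the shortest transcript of the 9, at 430 bases, and 17.6% of its exonic bases lie in POPDC2 on the same strand, which had 5.17 counts on average.

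Of the 3 chaperones ATOX1 and CCS were called and COX17 was not; the differences between the 3 changes were not tested, and the intervals of COX17 and the other two overlap. The protein-coding genes whose log2 CPM followed CCS most closely over the 6 libraries were WRAP53 (Pearson r = 0.999), NECAB3 (0.998) and LIN37 (0.998), with log2 fold changes of 0.38, 0.58 and 0.62. These 3 were picked as the highest of 12748 coding genes, of which 450 had r of at least 0.95 with CCS. With 6 libraries in 2 groups such likeness is a description only.

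LRRC8A, without which the channel does not form (chromosome 9, 128882112 to 128918039, plus strand), had 55.5, 48.9 and 64.2 CPM with PBS and 56.8, 56.0 and 55.7 CPM with cisplatin. The cisplatin libraries fell inside the PBS range. The fold was 0.999, with a 95% interval of 0.862 to 1.16 (adjusted p = 0.993), and its sign, near 0, changed with the scaling and in the length-corrected fit (0.15, adjusted p = 0.203).

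LRRC8D (chromosome 1, 89821014 to 89936611, plus strand) had 100.2, 100.03 and 103.7 CPM with PBS and 87.4, 83.6 and 75.8 CPM with cisplatin. The PBS libraries were tightly grouped, and all cisplatin libraries lay below them. It fell by 0.30 ± 0.08 on the log2 scale, a fold of 0.811 (95% interval 0.722 to 0.910, adjusted p = 0.00868). In the length-corrected fit it was -0.24 (adjusted p = 0.0191), still called. Without cisplatin library 3, the lowest, it was -0.24 with an adjusted p of 0.05004, just outside the threshold. At 3235 bases it falls in a class of which 12% were higher and 24.2% lower.

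**Figure D3:**
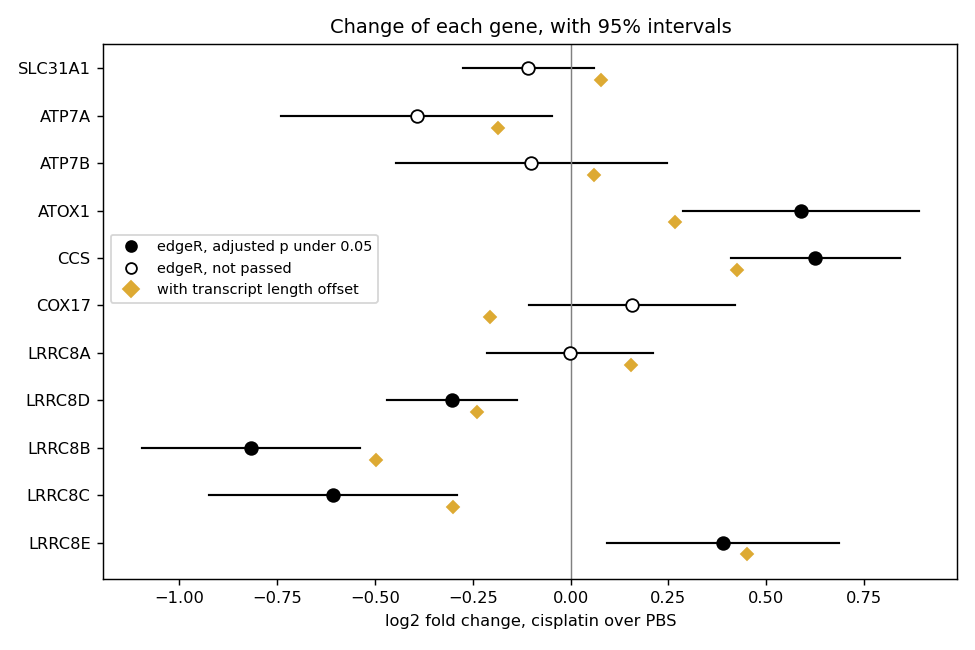
Log2 fold change (cisplatin over PBS) with its 95% interval from edgeR for the 8 tested genes and the other LRRC8 subunits; filled circles were called, open circles were not, and diamonds are the length-corrected values. Intervals of ATOX1 and CCS lie right of 0 and that of LRRC8D left of it, as does that of ATP7A, which was not called after adjustment; the diamonds of SLC31A1, ATP7B, COX17 and LRRC8A are on the other side of 0 from their circles.

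The other subunits that join LRRC8A in the channel were given by a list of 3, all tested, with 2 lower and 1 higher. Over all tested genes 19.3% were lower and 18.9% higher, so counts in a list of 3 are only a description. LRRC8B had 17.8, 23.7 and 19.8 CPM with PBS and 10.9, 11.8 and 12.2 CPM with cisplatin, groups well apart, and fell by 0.82 ± 0.13 (log2, adjusted p = 5.0e-04; length-corrected -0.50, adjusted p = 0.0068). LRRC8C had 9.16, 10.7 and 10.5 CPM with PBS and 5.88, 6.41 and 7.57 CPM with cisplatin, also apart, and fell by 0.61 ± 0.15 (adjusted p = 0.00645). In the length-corrected fit LRRC8C was at -0.30 and not called (adjusted p = 0.117). The transcripts of LRRC8B and LRRC8C average 7330 and 6995 bases, in the length class over 5000 bases. Of all genes in that class 48.1% were lower and 4.93% higher, with a median of -0.29.

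LRRC8E, the remaining subunit, had 8.60, 7.23 and 8.92 CPM with PBS and 9.96, 10.96 and 11.3 CPM with cisplatin. It rose by 0.39 ± 0.14 on the log2 scale, with an adjusted p of 0.0394 from edgeR. That call held in only 10 of the 20 alternatives and was lost on leaving out PBS library 1 (0.42, adjusted p = 0.0580), PBS library 2 (0.30, 0.106) or cisplatin library 1 (0.44, 0.0543), 2 (0.39, 0.0803) or 3 (0.35, 0.122). An antisense gene without a symbol covers 74.3% of the exonic bases of LRRC8E and was itself higher (log2 1.46, edgeR adjusted p = 0.00731). It averaged 11.6 expected counts, beside 77.0 to 188 per library for LRRC8E. Without strand the reads of the 2 genes cannot be told apart.

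LRRC8B, LRRC8C and LRRC8D were all called lower, as were 19.3% of all tested genes. In their length classes 48.1% (LRRC8B and LRRC8C) and 24.2% (LRRC8D) of genes were lower. The 3 stand in a row on chromosome 1, with gaps of 35207 and 51110 bases between them. Within that stretch lies 1 other coding gene, without a symbol, which shares 6.78% of the exonic bases of LRRC8D and had 0 counts on average. Among the 9 other tested genes within 1 Mb, 2 were higher and 1 lower, with a median log2 fold change of 0.06. LRRC8A and LRRC8E are on other chromosomes.

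On the TPM scale LRRC8D held most of the family's mRNA. It took 61.9% ± 2.28 of the LRRC8 total with PBS (59.3% to 63.6%) and 57.2% ± 2.18 with cisplatin (55.0% to 59.3%), so the groups overlapped slightly. LRRC8A took 25.5% ± 2.95 and 29.1% ± 0.411, barely without overlap (at most 28.64% with PBS and at least 28.78% with cisplatin). LRRC8E went from 4.85% ± 0.254 (at most 5.15%) to 8.32% ± 1.58 (at least 6.57%), LRRC8B from 5.10% ± 0.739 to 3.40% ± 0.113, and LRRC8C from 2.69% ± 0.317 to 2.02% ± 0.304. Shares of 1 total move together, and no test was made on them. The ratio of LRRC8D to LRRC8A was 2.07 to 2.79 with PBS and 1.86 to 2.05 with cisplatin, and the family total 55.8 to 73.0 and 48.3 to 51.9 TPM. Messenger RNA shares do not give the make-up of the channel protein.

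**Figure D4:**
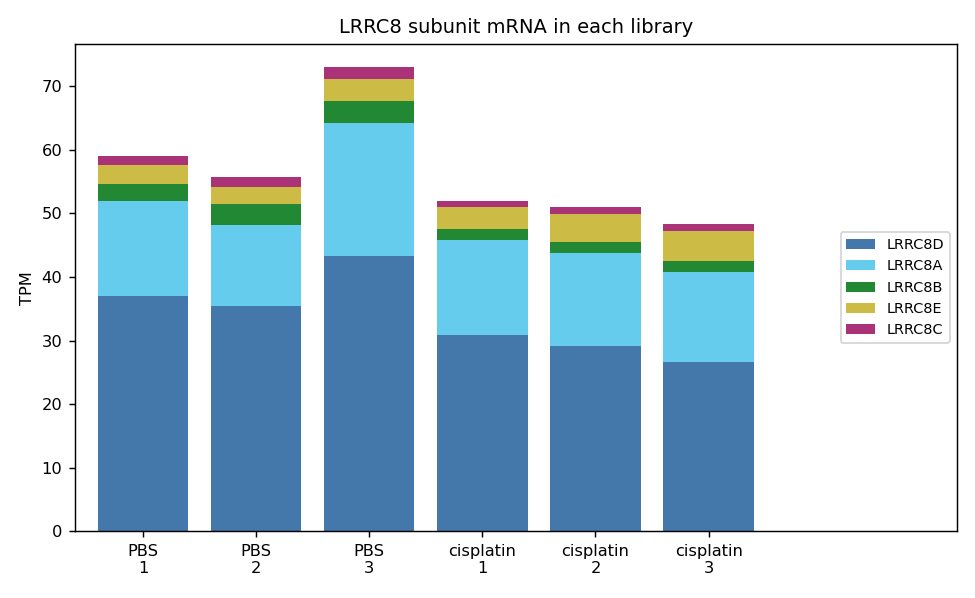
Stacked TPM of the 5 LRRC8 genes, 1 bar per library, with the axis starting at 0 and each colour 1 subunit. LRRC8D fills 55.0% to 63.6% of every bar, and the total is 55.8 to 73.0 TPM with PBS and 48.3 to 51.9 TPM with cisplatin.

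Ordered by TPM, the PBS cells held most COX17 (150 ± 6.17, SD, n = 3), then ATOX1 (111 ± 12.9), LRRC8D (38.6 ± 4.11) and CCS (37.3 ± 2.12), LRRC8A (16.1 ± 4.25) and SLC31A1 (16.03 ± 1.66), ATP7A (3.49 ± 0.452) and ATP7B (2.78 ± 0.341), and last SLC31A2 (0.440 ± 0.178). Within the pairs LRRC8D and CCS, LRRC8A and SLC31A1, and ATP7A and ATP7B the libraries overlapped; the other neighbours did not. The chaperones COX17 and ATOX1 were thus the most abundant of the set. SLC31A2 was the least abundant, with the ATPases ATP7A and ATP7B next above it. With cisplatin, ATOX1 (151 ± 3.42) and COX17 (139 ± 9.96) overlapped at the top and CCS (51.7 ± 4.66) stood clear of LRRC8D (28.8 ± 2.13). The rest kept their order, at 14.7 ± 0.365 for LRRC8A, 14.0 ± 0.716 for SLC31A1, 2.60 ± 0.621 for ATP7A, 2.10 ± 0.319 for ATP7B and 0.587 ± 0.379 for SLC31A2. The ratio of SLC31A1 to the sum of both ATPases was 2.31 to 2.74 with PBS and 2.47 to 3.49 with cisplatin, which overlap. For COX17 and ATOX1 the TPM rest on effective lengths far below the transcript length, for COX17 86 to 110 bases against 430, so their place in the order depends on that estimate.

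MTF1, the metal-responsive transcription factor of metallothionein genes, binds a short core, TGCACNC or TGCGCNC. Promoters were searched for it on both strands, from 250 bases before to 50 after each start in RefSeq (GRCh38.p14). Of the 9 genes 8 were in that table, and 5 of these 8 held the core in 7 of 13 windows, beside 33.4% of 27305 genes and 29.6% of 35116 windows overall. ATP7B, which was not called, also held the core and is not shown. Its cores begin at -36 and -93 from 1 start, and the core at -93 is counted again at 31 from another start. The cores nearest the start in the 3 called genes and in COX17 are shown, on the gene's strand with the core in capitals and 11 bases at each side.
ATOX1, chr5:151758633-151758662, minus strand: ccaggcctctaGTGCGCACtctcggaagcg
CCS, chr11:66593128-66593157, plus strand: cagggccttgcGTGCGCACgcactaggagg
COX17, chr3:119677452-119677480, minus strand: tttgcctcttcTGCGCACgcgctcctttt
LRRC8D, chr1:89821867-89821895, plus strand: gggcccgcaggTGCACCCagccgtccgcg
In ATOX1 and CCS the capitals hold the core on both strands, overlapping in the palindrome GTGCGCAC. That palindrome, singled out after it was seen, is in 229 of the 35116 windows (0.652%). The letters are a description of these windows, and no binding was measured.

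The same pathway beyond the 9 genes was read from 6 further lists, whose counts stand beside 18.9% higher and 19.3% lower over all tested genes. Metallothioneins, small proteins that bind copper, zinc and platinum, had 11 genes listed and 4 tested, with 3 called higher and none lower. Of these 3, MT3 and MT1F passed the low-count filter only through the cisplatin libraries, where they are high, so that count is no support for the list. MT1X had 6.48, 6.84 and 6.07 CPM with PBS and 10.1, 14.4 and 15.3 CPM with cisplatin, and rose by 1.05 (adjusted p = 5.2e-04). The groups did not overlap. MT3, from 4 to 6 counts per PBS library and 17 to 33 with cisplatin, rose by 2.24 (adjusted p = 5.1e-04). MT1F, from 4 to 12 counts and 12 to 42, rose by 1.53 (0.00567). MT2A, the most abundant, was at 0.25 (adjusted p = 0.256). MT1 and MT2 genes are close copies of each other, but the expected counts of these 4 were whole numbers in all 6 libraries. Their transcripts average 402 to 449 bases, and in the length-corrected fit MT1X, MT3 and MT1F gave 0.67, 1.86 and 1.16, all called.

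Copper-dependent enzymes had 13 of 19 genes tested, with 3 higher, 1 lower and a median of 0.15; the share higher is near that over all tested genes. SOD1, the client of CCS, had 530, 452 and 434 CPM with PBS and 640, 681 and 676 CPM with cisplatin. The groups stood apart, and SOD1 rose by 0.50 (adjusted p = 8.1e-04; length-corrected 0.28, called). LOXL2 and LOXL4, which cross-link collagen, rose by 0.69 (adjusted p = 0.00262) and 0.75 (0.0432), and the amine oxidase AOC2 fell by 0.67 (0.0360). LOXL4 lost its call without any 1 of the 6 libraries (adjusted p 0.0538 to 0.166) and AOC2 without any but PBS library 1 (0.0677 to 0.117). LOXL2 lost its call with limma on log2(TPM + 1) and on log2(TPM + 0.1).

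Copper reductases, regulators and trafficking partners had 12 of 15 tested, with 1 higher, 6 lower and a median of -0.22. STEAP3, a reductase of iron and copper, had 15.97, 12.4 and 15.4 CPM with PBS and 6.08, 6.24 and 5.71 CPM with cisplatin. No library of the groups came near the other, and it fell by 1.27 (adjusted p = 5.8e-05; length-corrected -1.15, called). SP1, a transcription factor known to drive SLC31A1, fell from 146 ± 2.702 to 102 ± 3.09 CPM, by 0.51 (adjusted p = 1.8e-04; length-corrected -0.21, called). MTF1 fell by 0.46 (adjusted p = 0.00509), but was at -0.15 and not called (0.258) in the length-corrected fit. The other 3 lower genes were SLC11A2, CCDC93 and XIAP, and the 1 higher was the copper-binding prion protein gene PRNP, at 0.43 (0.00765). PRNP lost its call with limma on log2(TPM + 1) and on log2(TPM + 0.1). The transcripts of CCDC93, SP1, MTF1 and XIAP average 5152, 6990, 7121 and 7221 bases, in the class where 48.1% of genes were lower. In each fit with a length correction fewer than 6 genes of the list were lower. Without cisplatin library 1 the list had 3 lower genes in place of 6.

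Mitochondrial copper delivery had all 9 genes tested, with 2 higher, 1 lower and a median of 0.12. CHCHD7 rose by 0.39 (adjusted p = 0.0188), SLC25A3, the mitochondrial phosphate and copper carrier, by 0.24 (0.0192), and SCO1, which loads cytochrome c oxidase, fell by 0.29 (0.0244). None of these 3 was called in the length-corrected fit. Each also lost its call without some libraries: CHCHD7 without PBS library 1 or 3 or cisplatin library 1 (adjusted p 0.0573 to 0.0587), SLC25A3 without cisplatin library 1 (0.0978) or 2 (0.0517), and SCO1 without PBS library 2 or any cisplatin library (0.0521 to 0.107).

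Lipoylation genes, through which excess copper is toxic, had all 11 tested, with 1 higher, 1 lower and a median of 0.04. LIAS, the lipoyl synthase, rose by 0.40 (adjusted p = 0.0167), a call lost without PBS library 3 (0.0530) or cisplatin library 1 (0.0812) and in the length-corrected fit (0.26, 0.0977), and DLAT, a lipoylated enzyme, fell by 0.46 (0.00386). Of the exonic bases of LIAS 3.09% lie opposite RPL9, which averaged 2949.5 counts and was higher as well (log2 0.44). No strand setting is given, so reads of that stretch cannot be told apart. FDX1, the reductase of that pathway, was at 0.11 (0.481). Among other platinum carriers 3 of 6 were tested, with 2 higher, none lower and a median of 0.33. TMEM205, a membrane protein linked to cisplatin resistance, rose by 0.57 (adjusted p = 6.9e-04) and had 360 to 874 counts per library. Of its exonic bases 41.4% lie opposite CCDC159, which averaged 28.6 counts and was higher as well (0.99). A further 8.97% are shared with RAB3D on the same strand, which averaged 38.6 counts and was not called (0.59). The exporter SLC47A1 rose by 0.33 (0.0263), a call lost without PBS library 1 (0.0782) or cisplatin library 1 (0.112) or 3 (0.0543).

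**Figure D5:**
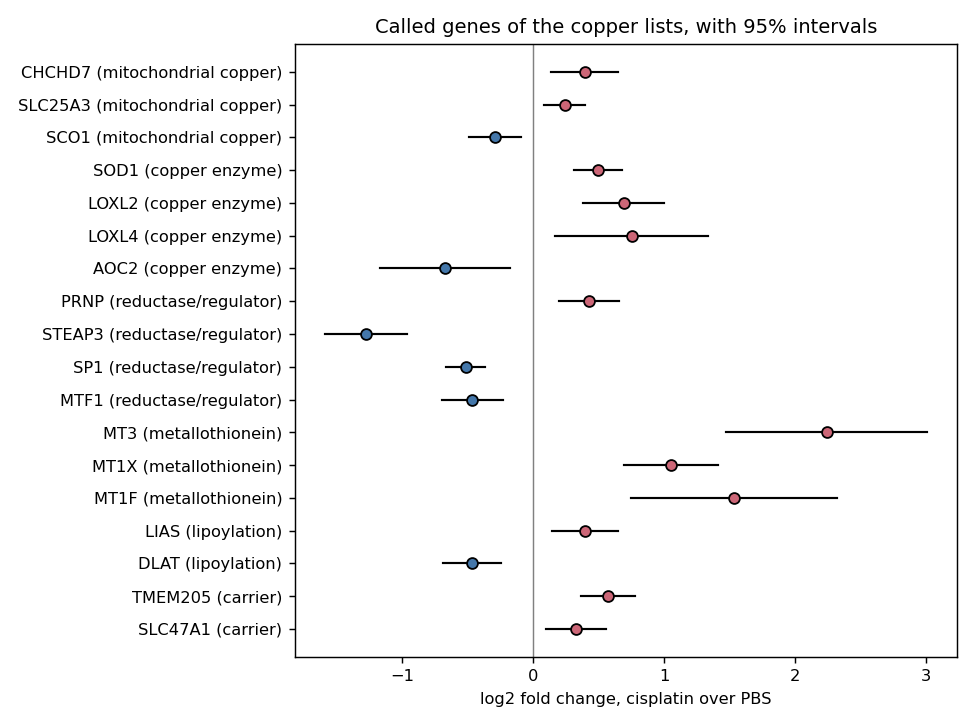
Log2 fold change (cisplatin over PBS) with its 95% interval from edgeR for the named genes of the pathway lists, red above 0 and blue below; MT3 at 2.24 is highest and STEAP3 at -1.27 lowest. Genes were picked as the called ones with the smallest adjusted p in each list, so all intervals leave out 0.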

How the data were processed

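Per the file headers, the authors deposited 1 table per library in RSEM's layout, with expected counts per gene, TPM, FPKM (not used) and transcript lengths. The submitters' processing notes name STAR 2.7.9 and GRCh38 (hg38). Sources used here do not give the annotation release, strand setting or RNA selection. Symbols were matched for 61399 genes; positions and overlaps are from GENCODE 29 (58352 genes). Rounded counts were filtered with filterByExpr (count 10, total 15), TMM-scaled and tested on group alone with edgeR 4.0.16 (R 4.3.3). SE is the log2 fold change over the square root of F. Alternatives used limma 3.58.1, DESeq2 1.42.0, other scalings and filters, and an offset from a lowess trend (span 0.3) of log2 CPM on length. The fits were tested on simulated data. No libraries were identical (chi-square per degree of freedom 2.83 to 18.5 within groups). Members and lists were chosen with earlier results of these data known. Named were all 9 members and, per list, up to 3 called genes in each direction by smallest adjusted p; MT2A, FDX1, SLC11A2, CCDC93 and XIAP were added after their values were seen. Likeness to CCS used Pearson's r of log2 CPM (prior count 2).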

Additional observations from a re-analysis of the deposited data

How the results depend on the processing

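Of 20 alternatives, 19 were planned and 1, a correction for length and GC together, was chosen after seeing the data. The members called higher, 2, became 1 with the length correction, 1 with length and GC, and 0 when tested against a 1.5-fold change (glmTreat); they stayed 2 on leaving out any 1 library. The members called lower, 1, became 2 with no low-count filter, 0 against a 1.5-fold change, and 0 to 2 on leaving out 1 library. CCS was called in all but glmTreat, and ATOX1 in 17 of 20 (length and GC 0.22, adjusted p = 0.0879). All genes called, 5752, ran from 481 (glmTreat) to 6074, with 2861 and 2815 on log2(TPM + 1) and log2(TPM + 0.1).

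Reversed signs were all of uncalled values except that of SCO1. SLC31A1 gave 0.077 with the length correction, 0.079 with the block and length, and 0.11 with length and GC; ATP7B gave 0.060, 0.050 and 0.014 there, and -0.22 to 0.058 on leaving out 1 library. COX17 gave -0.21, -0.21 and -0.17 there, and -0.11 on both TPM scales. LRRC8A gave 0.15, 0.16 and 0.078 there, 0.019 with upper quartile and 0.012 with total count scaling, 0.0035 with no filter, 0.011 with a filter of 50 counts, 0.0033 with the replicate block, 0.0078 with limma-voom, and -0.089 to 0.11 on leaving out 1 library. SCO1 gave 0.036 and 0.039 on the TPM scales. For these the cause was not tested.

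No clear pairing of libraries by shared number was seen: same-number deviations correlated at 0.066, 0.12 and -0.076, and not every library correlated best with its own number. Deviations from a mean of 3 libraries depend on each other, so these values cannot decide whether the libraries were paired. With the replicate block no member's call changed; with block and length correction ATOX1 was at 0.27 (adjusted p = 0.0410). Over the alternatives, calls higher and lower ran from 0 to 1 and 0 to 2 for the other LRRC8 subunits, 0 to 3 and 0 to 1 for mitochondrial delivery, 0 to 4 and 0 to 1 for enzymes, 0 to 1 and 1 to 6 for regulators, 0 to 3 and 0 to 2 for lipoylation, 1 to 4 and 0 for metallothioneins, and 0 to 2 and 0 for other carriers. Counts of SLC31A2 were too few to resolve a change.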
